A study of Mus musculus with 3 samples.

Results

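The thrombospondins and their receptors outside tenocytes were examined by taking 9 genes by symbol from the 32285 genes counted in flexor digitorum longus (FDL) tendons of mice. The ligands are *Thbs1*, *Thbs2*, *Thbs3*, *Thbs4* and *Comp*, and the receptors are *Cd47*, *Cd36*, *Sdc1* and *Sdc4*. All 9 were found, each on 1 row of the gene list. Ligands are described by the cells that hold their transcripts and receptors by the cells that could receive the signal, in 6 cell classes: epitenon-like, macrophage-like, T cell-like, endothelial-like, mural-like and Schwann-like cells. Levels in tenocyte-like cells are given only for reference.

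Thrombospondins are secreted glycoproteins of the extracellular matrix that bind collagens, proteoglycans, growth factors and receptors on the cell surface. *Thbs1* and *Thbs2* encode the trimeric subgroup A proteins, whose type 1 repeats bind CD36 and whose C-terminal region binds CD47, and thrombospondin 1 can also release TGF-beta from its latent form. *Thbs3*, *Thbs4* and *Comp* encode the pentameric subgroup B proteins, which lack the type 1 repeats, and *Thbs4* and *Comp* are abundant in tendon matrix. CD47 also binds SIRP-alpha on macrophages and so restrains phagocytosis, CD36 takes up fatty acids and modified lipoproteins, and the syndecans SDC1 and SDC4 are heparan sulfate proteoglycans of the cell surface.

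Transcripts were counted as unique molecular identifiers (UMIs) by 10x Genomics single-cell RNA sequencing in 1 library per group, each from 16 pooled FDL tendons of mice of both sexes. The 6 M DTR mice (DTR) carried Scx-Cre and Rosa-DTR F/+, in which Cre under the *Scx* promoter limits the diphtheria toxin (DT) receptor to Scleraxis-lineage cells. The 6 M WT littermates (WT) carried the same floxed receptor allele without Cre, and both groups received 5 injections of DT. The 21 M B6 mice (B6) were C57BL/6J without DT. The labels of the WT and DTR libraries give 3 months. In the paper, 3 months is both the age of these mice when injected and the time from depletion to harvest. They were thus 6 months old when their tendons were taken, and the group names follow that age. Tendons were digested for 120 min in 6 M WT and 90 min in the other 2 groups, so the effects of digestion time and of genotype or age cannot be told apart in any comparison with WT. In B6 against WT the DT injections and the receptor allele differ as well, and their effects cannot be told apart from that of age. With 1 library per group no difference was tested, and all intervals are exact 95% intervals for counting error only.

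The libraries held 12273 to 16099 barcodes and 92707026 to 148149903 UMIs. After the filter 8357 cells were kept in WT, 6554 in DTR and 4798 in B6, with medians of 12328 to 13008 UMIs per cell. Pairs of libraries shared 61 to 76 barcodes, of which 13 to 15 were kept cells. Tenocyte-like cells numbered 5392 in WT, 2650 in DTR and 1031 in B6. The epitenon-like class held 1660, 1782 and 2725 cells in WT, DTR and B6, and the macrophage-like class 667, 1174 and 530. The other 4 of the 6 classes were small, with 143, 351 and 92 T cell-like, 199, 190 and 207 endothelial-like, 146, 199 and 53 mural-like and 88, 106 and 54 Schwann-like cells. Macrophage, T cell and Schwann clusters each raised 8 of 8 markers, and endothelial and mural clusters 6 to 8 of 8. Median mitochondrial shares were higher in B6 than in WT in every one of the 6 classes, at 4.52% against 2.67% in epitenon-like cells, 7.20% against 4.18% in T cell-like cells and 6.71% against 5.85% in mural-like cells. The part of this difference in the results was not tested.

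A level is the UMIs of a gene summed over the cells of a class in 1 library and scaled by the total UMIs of that class to the usual per-million scale (CPM). Tenocytes are rich in *Comp*, *Thbs2* and *Thbs4*, so the tenocyte RNA present in each class was estimated with 6 tenocyte genes that are not members (*Tnmd*, *Fmod*, *Cilp2*, *Fibin*, *Kera* and *Chad*). Their summed level, as a percentage of that in tenocyte-like cells, was 1.35% in WT, 1.08% in DTR and 1.15% in B6 in mural-like cells, the lowest class in WT and DTR. In Schwann-like cells it was 16.9%, 11.9% and 0.830%, and in T cell-like cells 6.68%, 4.26% and 0.275%. In epitenon-like cells it was 6.49%, 9.32% and 1.22%, in macrophage-like cells 4.59%, 2.20% and 0.641%, and in endothelial-like cells 7.69%, 6.93% and 4.67%. The panel was thus lower in B6 than in WT in all 6 classes. The tenocyte RNA level of a member, used below as a yardstick, is its level in tenocyte-like cells times this percentage. A class that expresses panel genes itself would raise this level, and whether any class does so was not tested. *Chad* is among the leading genes of epitenon sub-cluster 2. The 4 erythroid markers summed to 65.6, 11458 and 33.0 CPM in mural-like cells of WT, DTR and B6. Their sums were 68.7, 14823 and 5167 CPM in Schwann-like and 724, 6977 and 14291 CPM in T cell-like cells. In epitenon-like cells they were 1352, 3115 and 836 CPM, and in macrophage-like cells 3288, 4610 and 4131 CPM. Endothelial-like cells had 340, 2664 and 2224 CPM. The part of this RNA in the results was not tested.

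*Thbs1* (ENSMUSG00000040152), whose product activates latent TGF-beta and binds CD47 and CD36, was highest in mural-like cells among the 6 classes in every library. Its level there was 1077 CPM (1020 to 1137) in WT, 884 CPM (841 to 930) in DTR and 1157 CPM (1068 to 1251) in B6. The intervals of WT and B6 overlapped, and DTR lay below both. In mural-like cells with no endothelial marker UMI the level was 1101 CPM (1037 to 1168) in WT and 1634 CPM (1495 to 1782) in B6, a ratio of 1.48 (1.33 to 1.65), and in those with such UMIs 967 CPM and 510 CPM. At least 1 *Thbs1* UMI was found in 65.1%, 63.8% and 67.9% of mural-like cells after every cell was thinned to 2000 UMIs, and in 89.0%, 84.9% and 88.7% without thinning. T cell-like cells, taken as a class that should lack the gene, were positive in 4.20%, 3.70% and 3.26%. Median depths were 8398, 7888 and 9194 UMIs in mural-like cells and 9983, 7842 and 9451.5 UMIs in T cell-like cells. Mural *Thbs1* was 94.2 to 195 times the tenocyte RNA level. The 10% of mural-like cells with the most *Thbs1* held 37.7% to 43.0% of its mural UMIs. The transcript was thus found in most mural-like cells, by the shares above, but at uneven levels. Markers of platelets, which store thrombospondin 1, summed to at most 14.7 CPM in any of the 6 classes.

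In epitenon-like cells *Thbs1* was 431 CPM (423 to 439) in WT, 218 CPM (212 to 223) in DTR and 647 CPM (639 to 655) in B6. The order was B6 over WT over DTR, with no overlap of counting intervals. The ratio to WT was 0.505 (0.489 to 0.521) in DTR and 1.50 (1.47 to 1.54) in B6, neither past 2-fold. Positive cells made up 27.3%, 17.9% and 31.6% after thinning, and 49.9%, 34.8% and 50.7% without it. Because the epitenon-like class was the largest outside tenocytes, it held 23.5% of all *Thbs1* UMIs of the kept cells in WT, 14.3% in DTR and 70.1% in B6.

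The epitenon level was uneven between sub-clusters, which were built without the members. Sub-cluster 3, led by *Ifit1*, *Nppc* and *Ccl11*, had 944 CPM of *Thbs1* in WT, 399 CPM in DTR and 1955 CPM in B6. Sub-cluster 4, led by *Saa3*, *Ccl19* and *Vcam1*, had 722 CPM, 317 CPM and 769 CPM. Sub-cluster 1, with 600, 672 and 1008 cells, had 177 CPM, 54.5 CPM and 203 CPM. Sub-cluster 5 had 100.2 CPM, 32.6 CPM and 103 CPM. In each of these 4 sub-clusters the DTR library was lowest. In the other 3 it was not: sub-cluster 6 had 19.5 CPM, 26.0 CPM and 11.9 CPM, sub-cluster 7 had 1911 CPM, 1259 CPM and 795 CPM in 37, 11 and 7 cells, and sub-cluster 2 had 502 CPM, 571 CPM and 548 CPM. Sub-cluster 2 detected 7 of the 8 tenocyte markers in at least 10% of its cells. All 8 summed to 2289 CPM against 1627 CPM for the 8 epitenon markers, and no marker of either list was raised. Without sub-cluster 2 epitenon *Thbs1* was 419 CPM, 133 CPM and 662 CPM. In epitenon-like cells with no UMI of the tenocyte panel, 433, 621 and 1729 cells, *Thbs1* was 380 CPM, 123 CPM and 622 CPM, a ratio of 0.324 (0.301 to 0.348) for DTR.

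Tenocyte-like cells gave the reverse order of the DT-treated libraries. *Thbs1* was 408 CPM in WT, 868 CPM in DTR and 730 CPM in B6 there, a ratio of 2.13 (2.1 to 2.16) in DTR, against ratios of 0.148 to 1.72 in the other classes. The share of *Thbs1* UMIs outside tenocyte-like cells was 34.1% in WT, 21.9% in DTR and 75.8% in B6, which follows both the levels and the number of cells in each class.

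Macrophage-like cells as a whole had 243 CPM (234 to 253) of *Thbs1* in WT, 36.1 CPM (33.3 to 39.1) in DTR and 76.4 CPM (70.4 to 82.8) in B6. The WT library stood apart from the other 2, with ratios of 0.148 (0.135 to 0.162) and 0.314 (0.287 to 0.343). The UMIs sat in few cells: the top 10% of macrophage-like cells held 97.3%, 100% and 97.3% of them. Sub-clusters 1 to 3, which carry complement C1q markers and hold 515 of the 667 macrophage-like cells of WT, had 4.34 CPM (3.06 to 5.98), 7.13 CPM (5.79 to 8.68) and 7.41 CPM of *Thbs1*. These levels, on 37 UMIs in WT and 99 in DTR, lie under the minimum of 20 CPM used for ratios, so no direction is read from them. The tenocyte RNA level of the whole class, 18.7 CPM in WT and 19.1 CPM in DTR, is no yardstick for them. Tenocyte markers summed to 47.5 to 65.1 CPM in sub-clusters 1 to 3 and to 4879 CPM in sub-cluster 5.

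Most macrophage *Thbs1* came from sub-cluster 4, in which 4 of 6 monocyte and dendritic markers were raised. Its leading genes were mixed: *Ccr7*, *Ccl17* and *Cd209a*, but also *Ccl5*, *Chil3*, *Serpinb2*, *Ramp3*, *Klrk1*, *Klrd1* and *Klrb1b*. Whether the make-up of this sub-cluster differed between libraries was not tested. With 89, 118 and 72 cells it had 1628 CPM (1556 to 1702) of *Thbs1* in WT, 146 CPM (130 to 163) in DTR and 258 CPM (231 to 287) in B6. It held 1939 of the 2583 *Thbs1* UMIs of the class in WT. Cells with a *Thbs1* UMI made up 57.3%, 16.9% and 20.8% of this sub-cluster, so both the share of cells and the level were highest in WT. Sub-cluster 6, in which 5 of 5 neutrophil markers were raised, had 1638 CPM, 1636 CPM and 1556 CPM, with 28 cells in WT, 1 in DTR and 2 in B6. The summed neutrophil markers in the whole macrophage-like class moved with *Thbs1*, at 1181 CPM, 32.0 CPM and 191 CPM with all 5 markers detected in every library, and their part in the class difference was not tested.

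**Figure D1:**
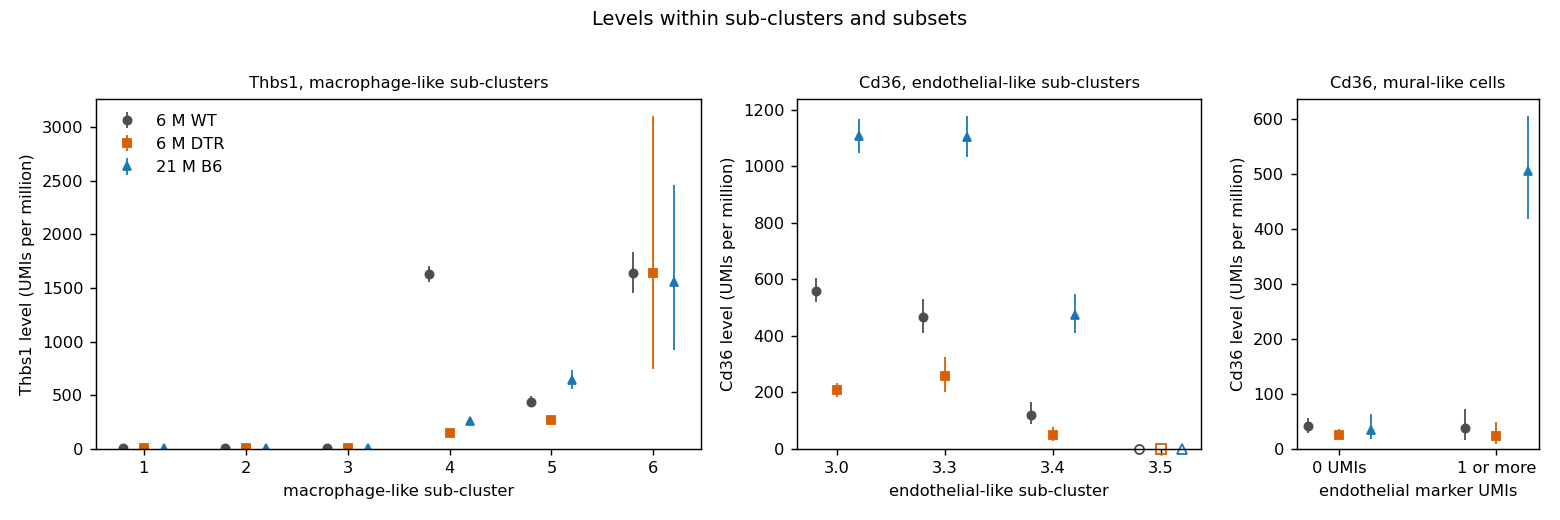
Levels in CPM (linear axes from 0) with exact 95% Poisson intervals, for *Thbs1* in the 6 macrophage-like sub-clusters, *Cd36* in the 4 endothelial-like sub-clusters, and *Cd36* in mural-like cells with 0 or with 1 or more UMIs of the endothelial markers, with circles for 6 M WT, squares for 6 M DTR, triangles for 21 M B6 and open symbols where no UMI was counted. *Thbs1* is near 0 in macrophage sub-clusters 1 to 3 and at 1628 CPM in sub-cluster 4 of 6 M WT, *Cd36* is highest in 21 M B6 in endothelial sub-clusters 3.0, 3.3 and 3.4, and the raised mural *Cd36* of 21 M B6 is in the cells with endothelial marker UMIs.

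Endothelial-like cells had 298 CPM, 310 CPM and 330 CPM of *Thbs1* in WT, DTR and B6, which differed by less than the counting error. The class was mixed, however. Sub-clusters 3.3 and 3.4, which also detected 8 of 8 mural markers and had medians of 15844 and 16345 UMIs per cell, made up 49 of its 199 cells in WT, 38 of 190 in DTR and 81 of 207 in B6. In each, 8 endothelial and 7 mural markers were raised. Mural markers summed to 8979 CPM and 4763 CPM in them, above the 3933 CPM and 1268 CPM of endothelial markers. Tenocyte markers summed to 4079 CPM in sub-cluster 3.4. Without sub-clusters 3.3 and 3.4 *Thbs1* was 99.5 CPM, 216 CPM and 98.9 CPM, so that the DTR library was at 2.17 times the WT level. Without sub-cluster 3.4 alone it was 278 CPM, 234 CPM and 205 CPM, with DTR below WT. In endothelial-like cells with no UMI of the panel it was 189 CPM, 199 CPM and 253 CPM, a ratio of 1.05 (0.854 to 1.30) for DTR. The difference between DTR and WT thus depended on the subset. Schwann-like cells had 218 CPM, 67.2 CPM and 66.0 CPM, but 1 cell of WT held 100 of its 133 UMIs. T cell-like cells had 22.7 CPM, 39.1 CPM and 5.30 CPM on 35, 120 and 5 UMIs, close to the tenocyte RNA level in WT and DTR at 0.835 and 1.06 times.

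*Thbs2* (ENSMUSG00000023885), the other subgroup A ligand and a regulator of collagen fibril assembly, was led by Schwann-like cells. Its level there was 330 CPM (286 to 379) in WT, 282 CPM (243 to 325) in DTR and 134 CPM (103 to 172) in B6. The B6 library was the lowest, at 0.406 (0.301 to 0.542) times WT. Positive Schwann-like cells made up 34.5%, 26.7% and 22.2% after thinning and 52.3%, 50.9% and 42.6% without it, against 5.59%, 1.99% and 1.09% of T cell-like cells, at median depths of 5752, 5583.5 and 7770 UMIs in Schwann-like cells. The level was 2.59, 3.47 and 26.3 times the tenocyte RNA level. In the 28, 42 and 31 Schwann-like cells with no UMI of the tenocyte panel *Thbs2* was 139 CPM, 177 CPM and 129 CPM, and there the libraries lay close together.

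Epitenon-like cells had 105 CPM (100.5 to 109) of *Thbs2* in WT, 160 CPM (155 to 165) in DTR and 85.0 CPM (82.1 to 87.9) in B6. The DTR library was highest, at 1.53 (1.46 to 1.61) times WT, and the panel of tenocyte genes was also highest in that library among epitenon-like cells. In epitenon-like cells with no UMI of the panel *Thbs2* was 99.0 CPM, 128 CPM and 75.5 CPM. DTR was still highest there, at 1.29 (1.17 to 1.43) times WT. Endothelial-like cells had 85.1 CPM, 65.0 CPM and 46.1 CPM, of which sub-cluster 3.4 alone, with 7 tenocyte markers detected, had 451 CPM, 377 CPM and 156 CPM. Endothelial sub-cluster 3.0, led by *Ackr1*, *Sele* and *Selp*, had only 15.0 CPM, 5.19 CPM and 26.2 CPM, and in B6 1 cell held 22 of its 32 UMIs. Macrophage-like cells had 40.8 CPM, 16.7 CPM and 7.82 CPM, T cell-like cells 49.4 CPM, 29.0 CPM and 2.12 CPM, and in both classes the level was 0.977 to 1.98 times the tenocyte RNA level. Mural-like cells had 44.3 CPM and 44.9 CPM in WT and DTR and 14.7 CPM on 8 UMIs in B6. Only 6.05% of *Thbs2* UMIs lay outside tenocyte-like cells in WT, compared with 17.1% in DTR and 33.2% in B6. This share follows the number of cells in each class as well as the levels, and tenocyte-like cells were far fewer in DTR and B6.

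*Thbs3* (ENSMUSG00000028047), a subgroup B ligand, was led by epitenon-like cells in all libraries. Its level was 198 CPM (192 to 203) in WT, 184 CPM (178 to 189) in DTR and 167 CPM (163 to 171) in B6, which was also above the 123 CPM, 104 CPM and 104 CPM of tenocyte-like cells. The ratios to WT of 0.929 (0.892 to 0.967) and 0.845 (0.814 to 0.877) were small, and scaling by TMM factors put the B6 ratio above 1, at 1.05. Positive epitenon-like cells made up 30.2%, 27.3% and 26.0%, against 0.699%, 1.14% and 3.26% of T cell-like cells. The level was 18.9 to 132 times the tenocyte RNA level, and 221 CPM, 201 CPM and 171 CPM in epitenon-like cells with no UMI of the panel. All 7 epitenon sub-clusters held *Thbs3*, from 62.1 CPM to 277 CPM over sub-clusters and libraries, with sub-cluster 3 the highest in each library at 277 CPM, 264 CPM and 228 CPM. Mural-like cells came next in DTR and B6, and their levels were 48.4 CPM, 65.7 CPM and 38.6 CPM on 59, 114 and 21 UMIs. Schwann-like cells had 62.1 CPM, 31.3 CPM and 19.2 CPM on 38, 21 and 9 UMIs, and the intervals of mural-like and Schwann-like cells overlapped in WT and B6.

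*Thbs4* (ENSMUSG00000021702), a tendon matrix glycoprotein of subgroup B, stood at 2465 CPM, 3924 CPM and 3844 CPM in tenocyte-like cells of WT, DTR and B6. Outside them it followed the tenocyte panel: over the 6 classes and 3 libraries its level was 0.373 to 1.92 times the tenocyte RNA level. Schwann-like cells had 582 CPM (523 to 646) in WT, 398 CPM (352 to 449) in DTR and 27.7 CPM (14.7 to 47.4) in B6. Epitenon-like cells had 268 CPM (262 to 275), 503 CPM (494 to 512) and 71.9 CPM (69.3 to 74.5). In both classes B6 was lowest by far, as was the panel itself. No class led in all libraries, with Schwann-like cells first in WT, epitenon-like cells in DTR and endothelial-like cells, at 364 CPM, 363 CPM and 151 CPM, in B6. The endothelial level came mostly from sub-cluster 3.4, which detected 7 tenocyte markers and had 2172 CPM, 2129 CPM and 687 CPM, whereas sub-cluster 3.0 had 37.4 CPM, 22.2 CPM and 80.2 CPM. In B6, 1 cell held 79 of the 98 *Thbs4* UMIs of sub-cluster 3.0. Macrophage-like cells had 115 CPM, 99.0 CPM and 24.4 CPM, and T cell-like cells 89.0 CPM, 186 CPM and 6.36 CPM. In epitenon-like cells with no UMI of the panel *Thbs4* was lower, at 99.7 CPM, 89.5 CPM and 20.7 CPM.

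*Comp* (ENSMUSG00000031849), the cartilage oligomeric matrix protein that binds collagen fibrils, had 5095 CPM, 6989 CPM and 4782 CPM in tenocyte-like cells. Among the other classes, epitenon-like cells led in every library with 1909 CPM (1892 to 1927) in WT, 2536 CPM (2517 to 2556) in DTR and 1192 CPM (1181 to 1203) in B6. Here the order was DTR over WT over B6, the reverse of epitenon *Thbs1*. Positive cells made up 60.4%, 59.5% and 48.0% of epitenon-like cells after thinning and 83.3%, 81.5% and 68.9% without it, against 21.0%, 18.2% and 6.52% of T cell-like cells. The epitenon level was 5.77, 3.89 and 20.4 times the tenocyte RNA level, and in epitenon-like cells with no UMI of the panel it was 1403 CPM, 995 CPM and 973 CPM. In these cells DTR was no longer above WT.

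*Comp* was concentrated in 4 of the 7 epitenon sub-clusters. Sub-cluster 2, led by *Itgb4*, *Acan* and *Ecrg4*, had 3786 CPM in WT, 7484 CPM in DTR and 2239 CPM in B6, and held 56.9% of the epitenon *Comp* UMIs of DTR. As given above, this sub-cluster carried more tenocyte than epitenon marker RNA, and without it epitenon *Comp* was 1585 CPM, 1355 CPM and 1029 CPM, with DTR below WT. Sub-cluster 1 had 2264 CPM, 1524 CPM and 1319 CPM, and sub-cluster 4 had 2042 CPM, 2163 CPM and 1876 CPM. Sub-cluster 6 had 1450 CPM, 2356 CPM and 808 CPM, while sub-clusters 3, 5 and 7 stayed at or below 445 CPM. Sub-cluster 3 was therefore among the highest in *Thbs1* and among the lowest in *Comp*. In the other 5 classes *Comp* was 0.376 to 2.66 times the tenocyte RNA level. Schwann-like cells had 1009 CPM, 600 CPM and 14.9 CPM, T cell-like cells 483 CPM, 427 CPM and 35.0 CPM, and macrophage-like cells 228 CPM, 153 CPM and 57.3 CPM. Endothelial-like cells had 391 CPM, 451 CPM and 286 CPM. In those with no UMI of the panel *Comp* was 56.1 CPM, 58.8 CPM and 121 CPM, a ratio of 2.15 (1.54 to 3.07) for B6. Without endothelial sub-cluster 3.4 it was 72.0 CPM, 66.0 CPM and 47.5 CPM, with B6 lowest. Mural-like cells, with the lowest tenocyte panel in WT and DTR, had 80.4 CPM, 82.4 CPM and 80.8 CPM, with overlapping intervals. In mural-like cells with no endothelial marker UMI the levels were 74.8 CPM, 86.9 CPM and 121 CPM, a ratio of 1.62 (1.07 to 2.43) for B6. In those with no UMI of the tenocyte panel they were 73.8 CPM, 79.5 CPM and 25.0 CPM. The ratio for B6 there was 0.338 (0.102 to 0.887), on 5 UMIs in 22 cells. The 2 subsets differ in direction, so no direction is read for mural *Comp* in B6.

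**Figure D2:**
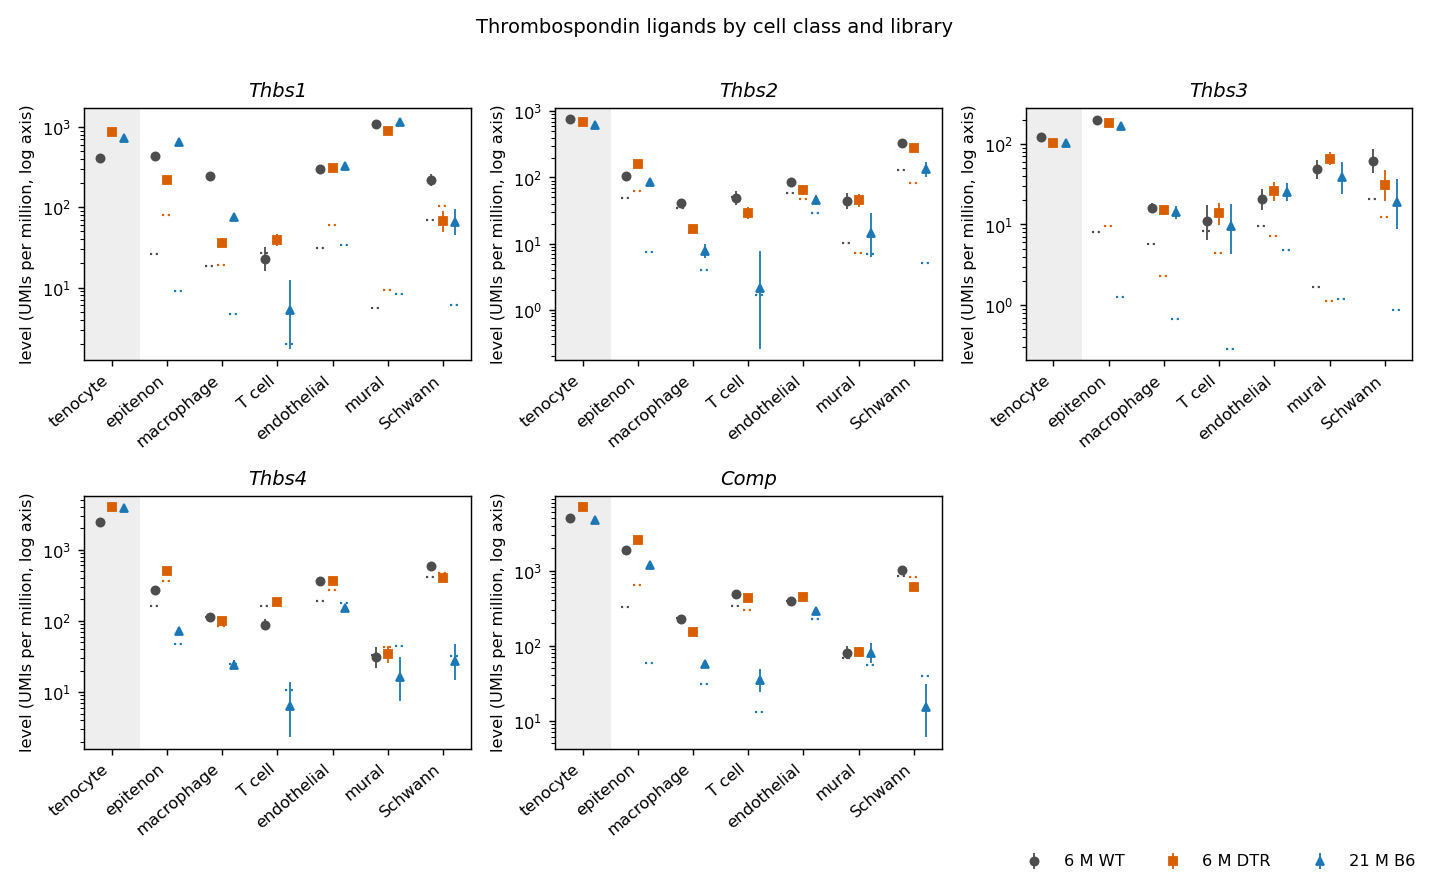
Levels of the 5 ligands in CPM (log axes) in tenocyte-like cells (grey band) and the 6 other classes, with exact 95% Poisson intervals, circles for 6 M WT, squares for 6 M DTR and triangles for 21 M B6, and a short dotted bar at the tenocyte RNA level of each class and library. *Thbs1* in mural-like cells and *Thbs3* in epitenon-like cells lie far above their dotted bars, while *Thbs4* lies 0.373 to 1.92 times its bar in all 6 classes.

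*Cd47* (ENSMUSG00000055447), the receptor of the C-terminal thrombospondin region, was found in all 6 classes. Epitenon-like cells were highest with 607 CPM (598 to 617) in WT, 643 CPM (633 to 653) in DTR and 472 CPM (466 to 479) in B6. T cell-like cells came next in each library, with 479 CPM (445 to 515), 560 CPM (534 to 588) and 358 CPM (321 to 398). Endothelial-like cells had 364 CPM, 452 CPM and 240 CPM, and macrophage-like cells had 326 CPM, 385 CPM and 293 CPM. These neighbours changed places between libraries, with endothelial-like above macrophage-like cells in WT and DTR and below them in B6. Schwann-like cells had 280 CPM, 303 CPM and 228 CPM. Mural-like cells were lowest in each library, at 206 CPM (181 to 233), 286 CPM (261 to 312) and 151 CPM (120 to 187), with intervals that overlapped those of Schwann-like cells in DTR.

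In every class *Cd47* was highest in DTR and lowest in B6, yet no ratio passed 2-fold. The log2 ratio of DTR to WT ran from 0.08 in epitenon-like to 0.47 in mural-like cells, and that of B6 from −0.60 in endothelial-like to −0.16 in macrophage-like cells. TMM scaling, which moved the log2 ratios of B6 by 0.05 to 0.32, kept all 12 directions but brought the epitenon ratio of B6 to −0.05. In cells with no UMI of the tenocyte panel the order of the libraries was the same in every class but Schwann-like cells. There *Cd47* was 244 CPM, 287 CPM and 255 CPM, a ratio of 1.05 (0.683 to 1.62) for B6. Positive cells after thinning made up 34.9% to 67.1% of the 6 classes in WT, and no class could serve as one that should lack the gene. Within macrophage-like cells, sub-cluster 4 had the highest *Cd47* in each library at 455 CPM, 552 CPM and 501 CPM, against 309 CPM, 354 CPM and 246 CPM in the C1q sub-clusters. Mural sub-cluster 3.1 had 290 CPM, 330 CPM and 231 CPM of *Cd47*, above the 134 CPM, 179 CPM and 114 CPM of sub-cluster 3.2. Against all other cells, *Rgs5*, *Kcnj8* and *Abcc9* were among the top genes of 3.1, and *Myh11* and *Acta2* of 3.2. Against sub-cluster 3.2, sub-cluster 3.1 was led by *Ccl11*, *Colec11* and *Hba-a1*. In it 3 of 4 erythroid markers were raised, with a sum of 10073 CPM against 148 CPM in 3.2. The part of this RNA in the levels and size of sub-cluster 3.1 was not tested.

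*Cd36* (ENSMUSG00000002944), the fatty acid translocase and receptor of the type 1 repeats, was nearly restricted to macrophage-like and endothelial-like cells. Tenocyte-like cells had 1.95 CPM, 1.91 CPM and 2.60 CPM and were positive in 0.389%, 0.415% and 0.485% after thinning, and 97.8%, 99.3% and 99.5% of *Cd36* UMIs lay outside them. Macrophage-like cells had 488 CPM (475 to 502) in WT, 514 CPM (503 to 525) in DTR and 553 CPM (537 to 570) in B6. These levels lay within 1.13 times of WT. Positive macrophage-like cells made up 47.1%, 49.2% and 53.2%, and 77.2%, 76.8% and 82.3% without thinning. The class held 81.1%, 93.5% and 61.1% of all *Cd36* UMIs. The C1q sub-clusters had 531 CPM, 587 CPM and 658 CPM, and sub-cluster 4, the source of most macrophage *Thbs1*, had 374 CPM, 156 CPM and 125 CPM. No *Cd36* UMI was counted in the neutrophil-marked sub-cluster 6, where the 28 cells of WT allow up to 20.3 CPM.

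Endothelial *Cd36* passed 2-fold in both comparisons. Its level was 439 CPM (411 to 467) in WT, 176 CPM (159 to 195) in DTR and 984 CPM (945 to 1023) in B6. The DTR library was thus lowest at 0.402 (0.355 to 0.454) times WT, and B6 highest at 2.24 (2.08 to 2.42) times, with both comparisons sharing the WT library. Positive endothelial-like cells made up 41.6% (34.7 to 48.8), 26.3% (20.2 to 33.2) and 73.9% (67.4 to 79.8) after thinning, and 64.8%, 43.7% and 88.9% without it, at median depths of 9152, 9744.5 and 10652 UMIs. Without the sub-clusters that detect mural markers *Cd36* was 508 CPM, 191 CPM and 1061 CPM, with ratios of 0.375 and 2.09, and the order was the same. Sub-cluster 3.0 alone had 560 CPM (518 to 604), 208 CPM (185 to 234) and 1106 CPM (1048 to 1166), where the ratio of B6 was 1.98 (1.80 to 2.17). Sub-cluster 3.5, led by the lymphatic genes *Ccl21a*, *Mmrn1* and *Prox1*, had no *Cd36* UMI in its 11, 15 and 4 cells, where the upper interval bounds were 30.2 CPM, 29.5 CPM and 70.8 CPM. At a mitochondrial limit of 5% the log2 ratio of B6 in endothelial-like cells was 0.90, and 0.97 for the mean over cells, both under 2-fold. Endothelial clusters led by *Gpihbp1*, with *Fabp4* and *Cd300lg* among their top genes, stood apart in the alternative clusterings. At the higher resolution they held 11, 11 and 25 cells and 4, 3 and 33 cells of WT, DTR and B6, and without integration 9, 2 and 41 and 1, 2 and 32 cells. The part of this make-up in the *Cd36* ratios was not tested.

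Mural-like cells had 40.2 CPM (29.7 to 53.2) of *Cd36* in WT, 25.3 CPM (18.4 to 34.0) in DTR and 235 CPM (196 to 279) in B6, a ratio of 5.85 (4.17 to 8.30) for B6. The summed level of the 8 endothelial markers in mural-like cells moved with it, at 53.3 CPM, 52.4 CPM and 793 CPM, with all 8 detected except *Selp* in B6. In the 122, 171 and 36 mural-like cells with no UMI of those markers *Cd36* was 40.9 CPM, 25.8 CPM and 35.1 CPM, a ratio of 0.858 for B6. The other 17 mural-like cells of B6 held 117 of its 128 *Cd36* UMIs, so the raised level was in cells that also carried endothelial transcripts. T cell-like, Schwann-like and epitenon-like cells had at most 17.0 CPM of *Cd36* in any library. Adipocyte markers, whose cells are rich in CD36, summed to at most 1.15 CPM in any of the 6 classes.

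*Sdc1* (ENSMUSG00000020592), a syndecan best known from epithelia and plasma cells, was led by mural-like cells in all libraries. Its level was 148 CPM (127 to 171) in WT, 211 CPM (190 to 234) in DTR and 86.3 CPM (63.4 to 115) in B6. The ratios to WT were 1.43 (1.19 to 1.72) and 0.584 (0.415 to 0.809), neither past 2-fold, and DTR was highest. In mural-like cells with no UMI of the tenocyte panel they were 1.23 (0.921 to 1.65) and 0.990 (0.638 to 1.51). In those with no endothelial marker UMI they were 1.65 (1.34 to 2.04) and 0.684 (0.438 to 1.03). Positive mural-like cells made up 16.4%, 27.6% and 15.1% after thinning and 38.4%, 58.3% and 28.3% without it, against 1.95%, 1.11% and 0.377% of macrophage-like cells. Sub-cluster 3.1 had 278 CPM (236 to 325), 275 CPM (247 to 306) and 125 CPM (77.2 to 191), and sub-cluster 3.2 only 36.5 CPM, 53.6 CPM and 69.1 CPM. Within sub-cluster 3.1 the intervals of WT and DTR overlapped, while sub-cluster 3.1 made up 77 of 146 mural-like cells in WT, 147 of 199 in DTR and 21 of 53 in B6. T cell-like cells had 81.2 CPM, 59.0 CPM and 49.8 CPM, and in this class the 5 plasma and B cell markers summed to 37.0 CPM, 28.4 CPM and 46.6 CPM with *Jchain* at 0. Tenocyte-like cells had 56.8 CPM, 46.8 CPM and 17.3 CPM, and endothelial-like, epitenon-like, Schwann-like and macrophage-like cells at most 34.8 CPM.

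*Sdc4* (ENSMUSG00000017009), the syndecan of focal adhesions, was led by Schwann-like cells with 1470 CPM (1376 to 1570) in WT, 1570 CPM (1476 to 1668) in DTR and 1208 CPM (1111 to 1312) in B6. The B6 library was lower, at 0.822 (0.738 to 0.914) times WT. Positive Schwann-like cells made up 87.4%, 79.0% and 85.2%, the highest shares of any receptor and class here, against 14.7%, 25.6% and 29.3% of T cell-like cells, which express the gene too. In Schwann-like cells with no UMI of the tenocyte panel the level was 1834 CPM, 1610 CPM and 1432 CPM. Macrophage-like cells had 853 CPM (835 to 870), 636 CPM (624 to 648) and 458 CPM (443 to 473). Epitenon-like cells had 702 CPM (692 to 713), 681 CPM (671 to 691) and 380 CPM (374 to 386). In both, B6 was lowest, at 0.537 (0.516 to 0.558) and 0.541 (0.530 to 0.553) times WT, just inside the 2-fold limit. TMM scaling put these ratios at 0.556 in macrophage-like and 0.675 in epitenon-like cells, and the Schwann ratio at 0.935. In macrophage-like cells with no UMI of the panel *Sdc4* was 882 CPM in WT and 408 CPM in B6. That ratio, 0.463 (0.438 to 0.490), was past 2-fold. In epitenon-like cells with no UMI of the panel it was 486 CPM and 362 CPM, a ratio of 0.745 (0.714 to 0.777). Mural-like cells had 276 CPM, 248 CPM and 222 CPM, T cell-like cells 150 CPM, 206 CPM and 159 CPM, and endothelial-like cells 147 CPM, 118 CPM and 94.2 CPM. In the 59, 177 and 72 T cell-like cells with no UMI of the panel *Sdc4* was 61.9 CPM, 172 CPM and 160 CPM, past 2-fold at 2.77 (1.93 to 4.10) times WT in DTR and 2.59 (1.75 to 3.91) times in B6. Endothelial sub-cluster 3.0 had 60.6 CPM, 17.8 CPM and 27.0 CPM, so much of the endothelial *Sdc4* lay in sub-cluster 3.4 with its tenocyte markers, at 560 CPM, 560 CPM and 277 CPM.

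**Figure D3:**
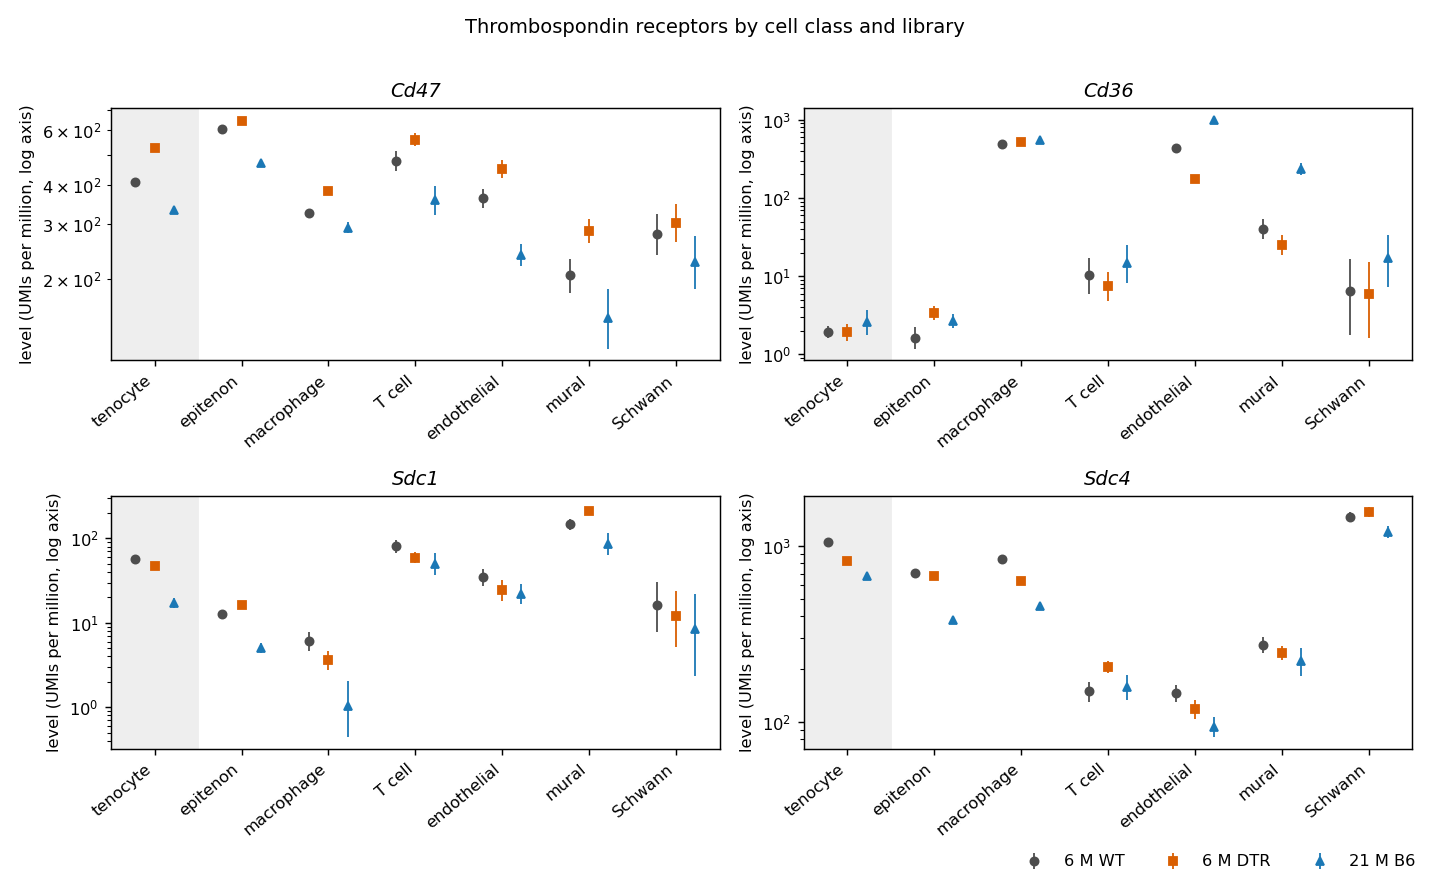
Levels of the 4 receptors in CPM (log axes) in tenocyte-like cells (grey band) and the 6 other classes, with exact 95% Poisson intervals, circles for 6 M WT, squares for 6 M DTR and triangles for 21 M B6. *Cd47* is highest in epitenon-like and lowest in mural-like cells of the 6 classes, *Cd36* is high in macrophage-like and endothelial-like cells, *Sdc1* is highest in mural-like cells outside tenocytes, and *Sdc4* is highest in Schwann-like cells.

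For 7 of the 9 members the same class led outside tenocytes in all 3 libraries: mural-like cells for *Thbs1* and *Sdc1*, Schwann-like cells for *Thbs2* and *Sdc4*, and epitenon-like cells for *Thbs3*, *Comp* and *Cd47*. The exceptions were *Thbs4* and *Cd36*, the latter led by macrophage-like cells in WT and DTR and by endothelial-like cells in B6.

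Pairs of a member and a class were counted as past 2-fold where the ratio of CPM was at least 2 or at most 0.5 and 1 of the 2 libraries had at least 20 CPM. In DTR against WT, 5 of 46 such pairs passed, 1 higher and 4 lower, where 3.87% of all gene and class pairs passed. None of 7 members passed in epitenon-like cells (1.53% of all genes there), and 2 of 7 did in macrophage-like cells (1.95%), *Thbs1* and *Thbs2* with a ratio of 0.408 (0.350 to 0.476). In macrophage-like cells with no UMI of the tenocyte panel *Thbs2* was 8.0 CPM in WT and 4.2 CPM in DTR, both under the minimum. In T cell-like cells 1 of 7 passed (2.79%), *Thbs4* at 2.1 (1.74 to 2.54) times WT. Among T cell-like cells with no UMI of the tenocyte panel *Thbs4* was 27.3 CPM and 26.7 CPM in this pair of libraries. In endothelial-like cells 1 of 9 passed (2.43%), *Cd36*, and in mural-like cells none of 9 (5.04%). In Schwann-like cells 1 of 7 passed (8.36%), *Thbs1*, which rests on the 1 cell described above. *Thbs1* in epitenon-like and *Thbs3* in Schwann-like cells, with ratios of 0.505 and 0.504, lay just inside the limit. In epitenon-like cells with no UMI of the panel *Thbs1* was past 2-fold, at 0.324 (0.301 to 0.348) times WT. Without epitenon sub-cluster 2 epitenon *Thbs1* was 419 CPM in WT and 133 CPM in DTR. The median log2 ratio of all genes was −0.05 to 0.03 over the classes.

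In B6 against WT, 18 of 46 pairs passed, 2 higher and 16 lower, compared with 9.72% of all pairs, and the median log2 ratio of all genes was −0.27 to −0.08. All 16 lower pairs were ligands, and both higher pairs were *Cd36*. In epitenon-like cells 1 of 7 members passed (3.31% of all genes), *Thbs4* at 0.268 (0.256 to 0.280). In macrophage-like cells 4 of 7 passed (5.87%), *Thbs1*, *Thbs2* at 0.192, *Thbs4* at 0.212 and *Comp* at 0.251. Macrophage sub-cluster 5, which detected 7 tenocyte markers in its 35 cells of WT and 19 of B6, held 78.8%, 76.7% and 76.1% of the macrophage UMIs of *Thbs2*, *Thbs4* and *Comp* in WT. In macrophage-like cells with no UMI of the panel the ratios of these 3 ligands were 0.866, 0.529 and 0.950, none past 2-fold. In the C1q sub-clusters alone *Comp* was 49.1 CPM in WT and 29.8 CPM in B6, which was not past 2-fold. In T cell-like cells the same 4 ligands passed among 7 members (10.3%), with *Thbs1* at 0.233, *Thbs2* at 0.0429, *Thbs4* at 0.0714 and *Comp* at 0.0724. Among T cell-like cells with no UMI of the panel, *Thbs4* was on 15 UMIs in WT and 6 in B6. Its ratio there was 0.303 (0.0964 to 0.827). *Comp*, on 29 and 15 UMIs, had a ratio of 0.392 (0.195 to 0.756). *Thbs1*, on 3 and 4 UMIs, and *Thbs2*, on 4 and 2 UMIs, were under the CPM minimum in these cells. In Schwann-like cells all 5 ligands passed among 7 members (15.1%), *Thbs1* at 0.304, *Thbs2* at 0.406, *Thbs3* at 0.309, *Thbs4* at 0.0476 and *Comp* at 0.0148. In Schwann-like cells with no UMI of the panel *Comp* was 76.7 CPM on 11 UMIs and 27.5 CPM on 7 UMIs, a ratio of 0.358 (0.118 to 1.01). *Thbs3* was 69.7 CPM on 10 UMIs and 23.5 CPM on 6 UMIs, a ratio of 0.338 (0.101 to 1.03). *Thbs2* was 139 CPM and 129 CPM, and *Thbs4* 20.9 CPM on 3 UMIs and 19.6 CPM on 5 UMIs. *Thbs1* was higher in B6, at 6.97 CPM on 1 UMI in WT against 98.1 CPM on 25 UMIs. In the whole class the 1 Schwann-like cell of WT described above held most *Thbs1* UMIs of that library. In macrophage-like, T cell-like and Schwann-like cells the tenocyte panel itself was lower in B6, by the percentages given above, and its part in the ratios was not tested. In endothelial-like cells 2 of 9 passed (6.64%), *Cd36* higher and *Thbs4* lower at 0.414, and *Thbs4* without sub-clusters 3.3 and 3.4 was 78.5 CPM in B6 against 38.5 CPM in WT. That level rests on the 1 cell of sub-cluster 3.0 described above, so no direction is read from it. In mural-like cells 2 of 9 passed (15.6%), *Cd36* higher and *Thbs2* lower at 0.332 (0.136 to 0.701).

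**Figure D4:**
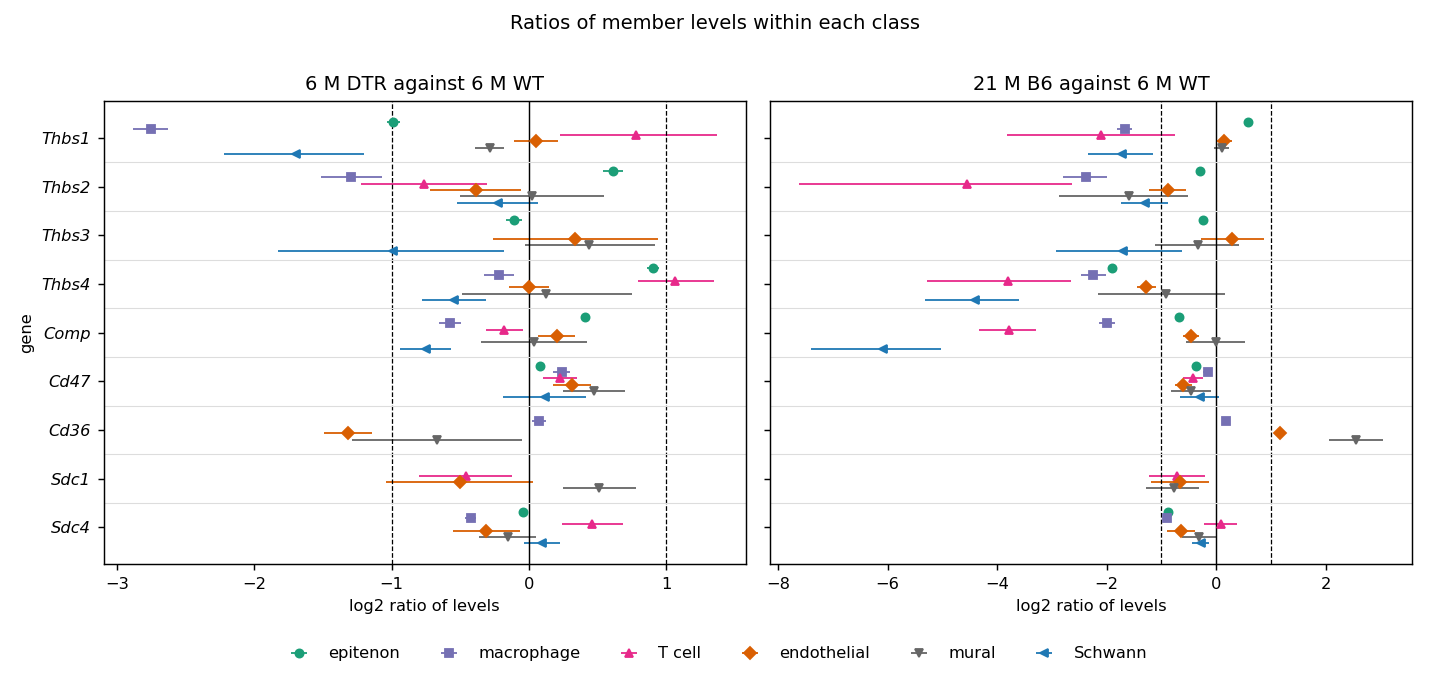
Log2 ratios of member levels to 6 M WT within each of the 6 classes, for 6 M DTR on the left and 21 M B6 on the right (the horizontal axes differ in range), with exact 95% intervals for counting error, dashed lines at 2-fold and symbols for the classes. In 6 M DTR 5 points pass a dashed line, with *Thbs1* in macrophage-like cells the lowest, and in 21 M B6 18 points do, with *Cd36* in endothelial-like and mural-like cells the only ones on the higher side.

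Partner genes of the members were taken from 6 lists with 22 genes. Of the other thrombospondin receptors, the integrins *Itgav*, *Itgb3*, *Itgb1*, *Itga3*, *Itga6* and *Itga4* with *Lrp1*, *Calr* and *Cacna2d1*, 38 pairs were above the CPM minimum, of which 1 was higher and none lower in DTR, where 3.87% of all gene and class pairs passed. That pair was *Itgb3* in endothelial-like cells, at 13.3 CPM and 34.2 CPM. In B6, where 9.72% of all pairs passed, 1 was higher, *Itga6* in mural-like cells, and 4 were lower: *Itga6* in macrophage-like cells, *Itgb1* in T cell-like cells, and *Lrp1* and *Cacna2d1*, the neuronal thrombospondin receptor, in Schwann-like cells. *Sirpa*, the partner of CD47 on macrophages, passed in none of its 3 pairs in either comparison, and its macrophage level was 215 CPM, 174 CPM and 170 CPM. The other syndecans *Sdc2* and *Sdc3* had 1 higher pair of 7 in DTR, *Sdc2* in T cell-like cells, and none in B6. The CD36 family genes *Scarb1* and *Scarb2* had none of 8 in DTR and 1 higher in B6, *Scarb1* in mural-like cells.

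Genes of fatty acid uptake that work with CD36 had the most pairs past 2-fold. In DTR 2 of 16 were higher, *Fabp4* and *Fabp5* in macrophage-like cells, and 4 lower, *Lpl* in epitenon-like, *Gpihbp1* in endothelial-like, and *Fabp4* in T cell-like and Schwann-like cells, compared with 3.87% of all pairs. In B6 6 of 17 were higher and 2 lower, compared with 9.72%. Of the higher pairs 2 were in mural-like cells, *Gpihbp1* and *Fabp4*. Mural-like cells of B6 carried 793 CPM of endothelial markers against 53.3 CPM in WT, and their part in these pairs and in mural *Itga6* and *Scarb1* was not tested. In endothelial-like cells *Gpihbp1*, the capillary anchor of lipoprotein lipase, was 148 CPM in WT, 72.3 CPM in DTR and 519 CPM in B6. The fatty acid binding protein *Fabp4* was 4258 CPM, 2728 CPM and 8041 CPM there, *Fabp5* was 116 CPM, 90.6 CPM and 284 CPM, and *Lpl* was 43.9 CPM, 32.3 CPM and 127 CPM. These 4 genes had the order of endothelial *Cd36*, with DTR lowest and B6 highest. Of them *Fabp4* was past 2-fold in neither comparison. *Pparg*, the other gene of this list, was not past 2-fold in endothelial-like cells of B6 and was under the CPM minimum for DTR against WT. As given above, endothelial clusters led by *Gpihbp1* held mostly B6 cells in the alternative clusterings, and the part of this make-up in the levels was not tested. Of the TGF-beta genes that thrombospondin 1 acts on, *Tgfb2* was higher in DTR in endothelial-like cells, at 30.2 CPM and 82.4 CPM, and in mural-like cells, at 55.8 CPM and 113 CPM. No other pair of the 13 passed in that comparison, and in B6 *Tgfb2* in Schwann-like cells was lower.

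The genes most like each member were ranked by Pearson's r of log2(CPM + 1) over 24 points, 8 classes in 3 libraries, among 9972 genes. The points share libraries and classes, and r is a description only. *Thbs1* was most like *Pls3* (0.90), *Mfge8* (0.89) and the mural marker *Pdgfrb* (0.89). *Thbs2* was most like the matrix genes *Col12a1* (0.94), *Col1a2* (0.91) and *Lox* (0.91), *Thbs4* like *Fmod* (0.96), *Ogn* (0.93) and *Angptl7* (0.93), and *Comp* like *Prg4* (0.96), *Itgbl1* (0.95) and *Angptl7* (0.94). *Thbs3* was most like *Nbl1*, *Ift27* and *Twist1* (each 0.91). Of the receptors, *Cd36* was most like *Csf2rb* (0.92), *F11r* (0.92) and *Mctp1* (0.91), *Cd47* like *Mbnl1* (0.91), *Tram1* (0.90) and *Nucb1* (0.88), and *Sdc4* like *Pmepa1* (0.92), *Tmem97* (0.92) and *Nradd* (0.86). *Sdc1* had the weakest likeness, with *Esyt2* and *Cnbp* (each 0.82) and *Eprs* (0.81).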

How the data were processed

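FDL tendon cells of 3 libraries were analysed, 1 for each group, so no difference was tested. The authors deposited UMI counts per gene and barcode without normalization, made with Cell Ranger (version 6.0.1 in the file headers, 2.1.1 in the submitters' processing notes). The genome build is not given in the sources used here. The study's filter was applied, which keeps cells of 1000 to 5000 genes whose mitochondrial share is at most 10%. Seurat 5.3.0 in R 4.3.3 integrated the libraries (2000 variable features per library, 20 dimensions, 31 member and partner genes left out) and clustered them at a resolution of 0.1, with sub-clusters at 0.2. A cluster was named when 3 or more markers of a class were 2-fold above the other cells and present in 10% of its own. Scrublet, run in scanpy 1.11.5, called 2, 7 and 1 cells, under 0.5% and so not working, and doublets were kept except in an alternative. Counts were summed per class and library and scaled to CPM. Intervals are exact Poisson or Clopper-Pearson intervals at 95%. Shares of positive cells used cells thinned to 2000 UMIs, without 9, 5 and 1 shallower cells. TMM factors came from edgeR 4.0.16. Python 3.11.15 was used with numpy 2.4.6, scipy 1.17.1, pandas 2.3.3 and matplotlib 3.10.9. The calls were tested on simulated data. The genes named are the members, the 6 lists and the 3 genes most like each member. Members, lists and markers were chosen with earlier results of these data known. The study's cell communication analysis was not used here.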

Additional observations from a re-analysis of the deposited data

Results flagged for a closer look

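For *Thbs1*, the ratio of DTR to WT passed 2-fold in opposite directions between classes. Its log2 ratio was −2.75 in macrophage-like and −1.70 in Schwann-like cells, and 1.09 in tenocyte-like cells, and the difference between classes was not tested. For *Thbs4* in T cell-like cells, the log2 ratio to WT was 1.07 in DTR and −3.81 in B6. For *Cd36* in endothelial-like cells it was −1.31 in DTR and 1.17 in B6. In both cases the comparisons share the WT library, and the difference between them was not tested.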

How the results depend on the processing

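With 10 alternatives, the pairs past 2-fold in DTR were 5 to 9 against 5 in the report, with 8 at a mitochondrial limit of 5% and 9 without the 5% of cells with the highest Scrublet score, and the cause was not tested. In B6 they were 12 to 21 against 18. The members with 1 leading class in all libraries were 5 to 7 against 7 over 8 alternatives. Of 23 ratios past 2-fold in the 6 classes, all passed under TMM scaling and 14 without the 10% of cells with the largest tenocyte panel share. Some log2 ratios reversed, in alternatives made partly after seeing the data. *Thbs1* in the C1q macrophage sub-clusters alone, at levels under the CPM minimum, had 0.72 in DTR and 0.77 in B6. In cells with no panel UMI, *Thbs1* had 0.45 (DTR) and 3.81 (B6) in Schwann-like and 0.016 (B6) in T cell-like cells, and *Thbs4* −0.034 (DTR) in T cell-like cells. Without the 10% of cells with the largest panel share, *Thbs1* in Schwann-like cells of B6 had 2.37 and *Thbs4* in T cell-like cells of DTR −0.013, and the latter −0.43 without the highest Scrublet scores. *Thbs4* in endothelial-like cells of B6 had 1.03 without sub-clusters that carry mural markers and 0.71 without those that carry tenocyte markers, where 1 cell held 79 of the 98 UMIs of sub-cluster 3.0. *Cd36* in mural-like cells of B6 had −0.22 where no endothelial marker UMI was found. No paired analysis was possible because each group has 1 library. Classes of under 100 cells limit the depth, and at a mitochondrial limit of 5% only 3 mural-like, 8 Schwann-like and 12 T cell-like cells of B6 remained.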
